A study of Danio rerio with 9 samples.

Results

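The transcriptomes of zebrafish embryos that lacked cep290 by mutation and of embryos in which cep290 was knocked down with a morpholino were compared directly, gene by gene. The deposited expression table listed 33737 genes, and 13786 of them reached a mean of 2 RPKM over the 6 libraries concerned and were compared. RPKM is a read density, the reads on a gene divided by its length and by the normalised size of the library. The remaining genes were at 0 in all 6 libraries (5893) or had a lower mean (14058), and the means just inside and just outside the limit were 2.00057 and 1.99981 RPKM. MZcep290-/- mutants carried a 10-bp deletion in exon 16 and came from homozygous mutant mothers, so that they lacked both the maternal and the zygotic gene product. cep290ex25 morphants were wild-type embryos injected into the yolk at the earliest cleavage stages with a morpholino that covers the splice donor of exon 25. Wild-type TuAB embryos are given beside both groups for orientation and were left out of the fit. All 3 groups were collected at 72 h post fertilisation (hpf), and each library was made from a pool of 30 whole embryos, with 3 pools per group. The clutches behind the pools are not given, so that p-values measure only the spread between these pools, which may be technical. Control-injected embryos were not analysed here, and effects of the injection or of the mutant line cannot be told apart from the loss of cep290.

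Cep290 is a large protein of the ciliary transition zone, the gate at the base of the cilium, where Y-shaped links tie the microtubule doublets to the membrane and control which membrane proteins enter. In human patients mutations of CEP290 cause retinal dystrophy and syndromes of the kidney, brain and retina, since the outer segment of a photoreceptor is a modified cilium. A splice-blocking morpholino leaves the gene intact and acts on its pre-mRNA in the injected embryo only, whereas a frameshift allele acts in every cell and every generation. Morpholinos are known to induce innate immune genes in zebrafish embryos in some cases, and mutants can show transcriptional adaptation that knockdown embryos lack.

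The mutant libraries were the deepest and the most alike. They held between 18662115 and 21299112 reads on genes, against 9050375 to 16150393 reads in the morphant libraries and 5652757 to 7674248 in the wild-type libraries. Over the genes compared, libraries of log2(RPKM + 0.1) correlated with r of 0.983 to 0.985 among mutants, 0.936 to 0.955 among morphants and 0.850 to 0.892 among wild types (across genes, which are not independent replicates). The median standard deviation of a gene on this scale was 0.0939 in mutants, 0.213 in morphants and 0.334 in wild type. It was larger in morphants than in mutants for 11465 of the 13786 genes. The 50 genes with most reads took 21.3% to 21.95% of all reads in mutants, 27.8% to 34.01% in morphants and 40.8% to 41.9% in wild type. Of 33 marker genes for 9 tissues of a whole larva, 32 were in the table and 30 were above 0 in all 6 libraries.

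Several of these tissue markers differed in their summed level between the groups. Neuronal markers summed to 239 to 251 RPKM in mutants, 102.9 to 124 RPKM in morphants and 108 to 115 RPKM in wild type. Fast muscle markers summed to 7865 to 8314 RPKM in mutants, 12540 to 17047 RPKM in morphants and 18884.5 to 25323 RPKM in wild type. Skin markers summed to 2934 to 2961 RPKM in mutants, 5358 to 6835 RPKM in morphants and 6311 to 8414 RPKM in wild type. For lens markers the ranges overlapped, at 299.5 to 324 RPKM in mutants and 295 to 324 RPKM in morphants. Most of this sum was crygm2d1, at 235, 263 and 257 RPKM in mutants and 273, 267 and 301 RPKM in morphants. The markers mipb (44.7, 41.5 and 42.4 against 11.2, 16.3 and 13.9 RPKM) and cryaa (19.9, 19.5 and 22.2 against 11.3, 12.9 and 9.26 RPKM) were higher in every mutant pool. In wild type the lens markers summed to 227 to 360 RPKM. In libraries from whole embryos a smaller number of cells of a type and less RNA per cell cannot be told apart.

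The targeted gene was itself one of the genes that differed. Transcripts of cep290 (ENSDARG00000062727) were read in mutants at 1.32, 1.14 and 1.29 RPKM, in morphants at 5.45, 6.15 and 3.36 RPKM, and in wild type at 2.602, 1.62 and 1.72 RPKM. All 3 mutant pools lay below every morphant pool and also below every wild-type pool, while the morphant pools lay above wild type. Mutants over morphants gave −1.88 on the log2 scale (standard error 0.27, limma's adjusted p = 0.0016), a 3.67-fold higher level in morphants. These reads count transcripts of the whole gene, so they show neither the deletion nor the splicing of exon 25.

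Each gene was compared between mutants and morphants by limma on the log2(RPKM + 0.1) scale. Called genes are those with more than a 2-fold difference and a p under 0.05 after Benjamini-Hochberg adjustment over all genes. Of the 13786 genes, 1218 were called (8.84%), 631 of them higher in mutants (4.58%) and 587 lower (4.26%). An adjusted p under 0.05 was reached by 5431 genes, so for 4213 of them the difference was smaller than 2-fold. The 3 mutant and the 3 morphant values did not overlap for 7527 genes (54.6%), and for 1213 of the 1218 called genes. The change exceeded 4-fold for 72 genes that rose and 83 that fell, and 8-fold for 19 and 24. A two-sided exact permutation test of 3 libraries against 3 cannot give a p below 0.10, so no single gene can pass 0.05 by that test.

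**Figure D1:**
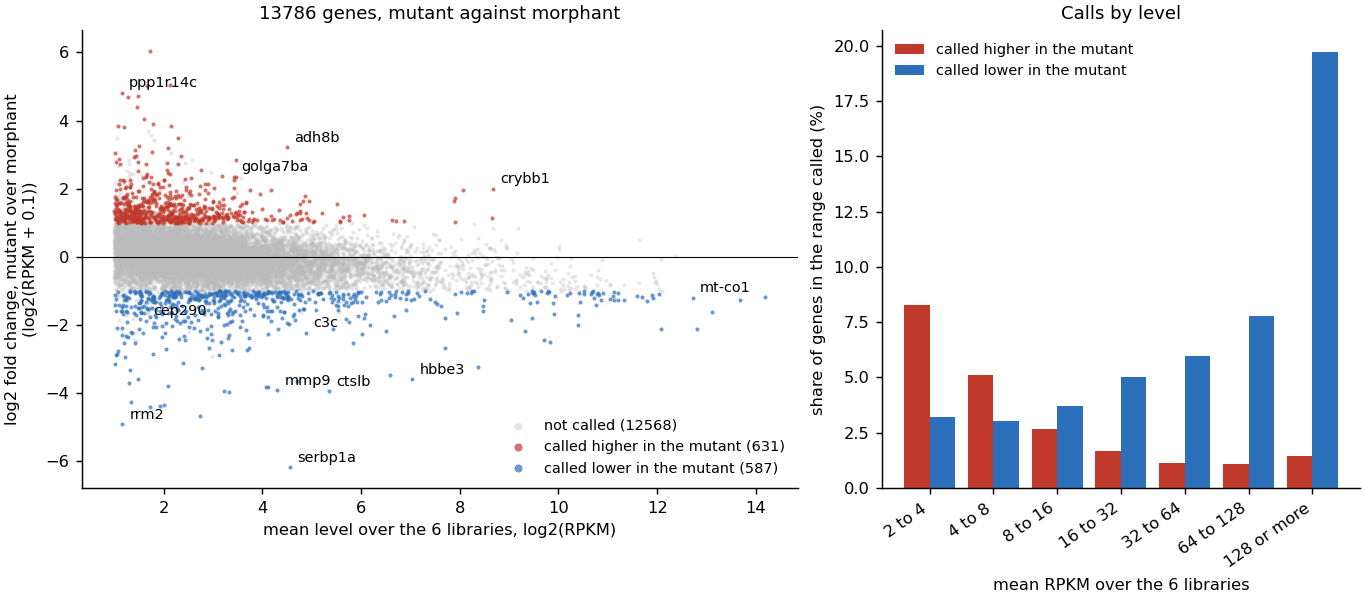
Left, the log2 fold change of mutants over morphants on the log2(RPKM + 0.1) scale against the mean level over the 6 libraries on a log2 axis, 1 point per gene, with the 631 genes called higher in mutants in red, the 587 called lower in blue and the rest in grey. Right, the share of genes called in each direction within 7 ranges of the mean level: higher calls fall from 8.26% in the lowest range to 1.43% in the highest, while lower calls rise from 3.201% to 19.7%.

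The direction of the calls followed the level of the gene. Between 2 and 4 RPKM, 302 genes were called higher in mutants and 117 lower, and the median log2 fold change was 0.18. Among the 421 genes in the highest range of level, 6 were called higher and 83 lower, and the median was −0.61. The median over all genes was −0.03. The split of 51.8% higher calls therefore rested on the genes compared and on the scaling: with read totals in place of the authors' normalised library sizes (median of all genes 0.40), 1898 genes were called higher and 204 lower (90.3% higher), and above a mean of 10 RPKM, 85 were called higher and 307 lower (21.7% higher). The wild-type mean lay between those of both other groups for 364 of the 631 genes that rose and for 298 of the 587 that fell. It lay below both for 206 of the genes that rose, and above both for 224 of the genes that fell.

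The deepest falls in mutants among genes with a gene name included genes that were close to silent there. The RNA-binding protein gene serbp1a (ENSDARG00000074580) was read at 0.454, 0.557 and 0.615 RPKM in mutants, 44.6, 39.2 and 55.4 RPKM in morphants and 43.9, 51.01 and 58.7 RPKM in wild type. The mutant pools thus stood apart from both other groups, by a log2 fold change of −6.17 against morphants (standard error 0.17, limma's adjusted p = 3.7e-06). A second entry of the same symbol (ENSDARG00000074242) held 53.9, 52.9 and 52.96 RPKM in mutants and 43.03, 35.3 and 44.8 RPKM in morphants, and did not pass the fold threshold (0.38, adjusted p = 0.0165). How the counting divided reads between both entries is not given in the sources used here, and the level summed over the pair was lower in mutants by a log2 ratio of −0.70.

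The same was seen for rrm2, the small subunit of ribonucleotide reductase, which supplies deoxyribonucleotides for DNA synthesis. One entry (ENSDARG00000020711) was read at 0.0299, 0.103 and 0.0318 RPKM in mutants, from 10 reads in all, and at 4.44, 4.41 and 4.45 RPKM in morphants, from 382 reads. All mutant pools were near 0 (log2 fold change −4.90, standard error 0.64, limma's adjusted p = 0.0011), and wild type lay between at 2.503, 2.24 and 1.19 RPKM. The other entry (ENSDARG00000078069) was read at 26.8, 26.3 and 27.4 RPKM in mutants, above the 14.4, 15.3 and 16.65 RPKM of morphants (0.79, adjusted p = 0.00045, under 2-fold). Summed over both entries rrm2 was higher in mutants, by a log2 ratio of 0.43. An entry of ARF4, which encodes a small GTPase of the Golgi, had 9 reads in mutants and 116 in morphants and fell by 4.40, and fabp1b.2, a fatty acid binding protein gene, fell by 4.33 on the log2 scale (adjusted p = 0.0051 and 0.00046 with limma).

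The matrix metalloproteinase gene mmp9, which is turned on in wounds, was read at 2.104, 2.43 and 2.56 RPKM in mutants, 39.1, 34.4 and 37.9 RPKM in morphants and 3.76, 3.81 and 3.97 RPKM in wild type. Morphants were thus 15.1-fold above mutants (log2 fold change −3.92, standard error 0.11, limma's adjusted p = 3.7e-06), while mutants and wild type both lay under 4 RPKM. The embryonic globin gene hbbe3 was read at 21.5, 22.2 and 17.1 RPKM in mutants, 232, 227 and 269.5 RPKM in morphants and 25.6, 61.3 and 76.2 RPKM in wild type (−3.58, adjusted p = 5.1e-06). Of 33 red cell genes it was the only one called lower, and bpgm, an enzyme of red cell glycolysis, was the only one called higher (1.25).

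Among the 10 largest rises in mutants, the gene with the highest level was adh8b. This alcohol dehydrogenase gene (ENSDARG00000024278) was read at 41.6, 41.3 and 39.996 RPKM in mutants, 3.69, 4.13 and 5.29 RPKM in morphants and 6.09, 9.72 and 8.86 RPKM in wild type. Mutants stood above both other groups and 9.29-fold above morphants (log2 fold change 3.22, standard error 0.13, limma's adjusted p = 1.4e-05). The cytochrome P450 gene cyp2x7 followed with 8.64, 9.37 and 8.80 RPKM in mutants, 1.23, 2.09 and 0.431 RPKM in morphants and 2.87, 2.39 and 5.04 RPKM in wild type (2.96, adjusted p = 0.0022).

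The remaining large rises rested on few reads in morphants. The gene mvb12ba, which encodes an ESCRT-I subunit, had 153 reads in the mutant libraries together and 2 in the morphant libraries, a ratio of normalised reads of 35.1 with a 95% counting interval of 9.56 to 293. An entry of ppp1r14c, which encodes an inhibitor of protein phosphatase 1, had 633 and 5 reads, and an entry of the receptor family TNFRSF14 had 274 and 3 reads (ratio 41.9, 95% counting interval 14.2 to 205). Of the other entries of both symbols, 2 reached the mean of 2 RPKM. The second ppp1r14c entry differed by −0.29 on the log2 scale (limma's adjusted p = 0.46), and TNFRSF14 (2 of 12) was called lower (−1.64, adjusted p = 0.0017). Also called higher were rnf126, SLC22A23 (3 of 3), ighv14-1, C25HXorf38 (1 of 2) and DEPDC4, with log2 fold changes of 2.86 to 3.50 and 1 morphant pool at 0 in 4 of these 5 genes. Leaving out any single mutant library ended the calls of the same 4 genes. These intervals cover counting error only, since reads are not independent molecules.

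**Figure D2:**
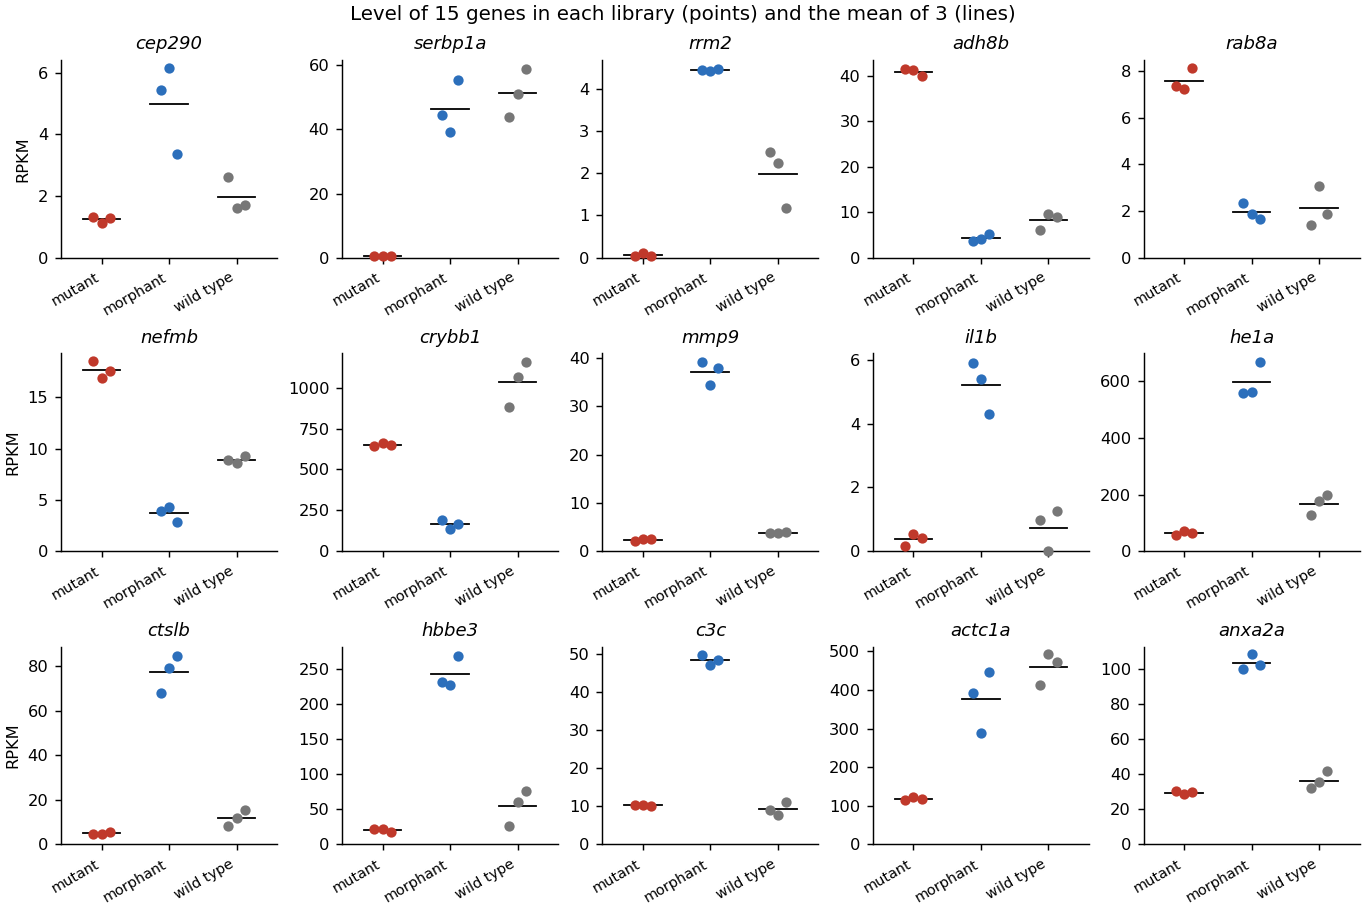
RPKM of 15 genes in each library (points) of mutants (red), morphants (blue) and wild type (grey), with the group mean as a line. Serbp1a and rrm2 are near 0 in mutants only, adh8b and rab8a are high in mutants, and mmp9, il1b, he1a, ctslb, hbbe3 and anxa2a are high in morphants.

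Genes of neurons and synapses formed the group with the largest share of higher calls. Of 55 such genes compared, 31 rose in mutants and none fell (56.4% higher, beside 4.58% of all genes), and their median log2 fold change was 1.07, against −0.03 over all genes. The neurofilament gene nefmb was read at 18.5, 16.9 and 17.6 RPKM in mutants, 3.94, 4.30 and 2.84 RPKM in morphants and 8.87, 8.57 and 9.25 RPKM in wild type. Its 3 groups did not overlap, with mutants highest and morphants lowest (log2 fold change 2.25, standard error 0.16, limma's adjusted p = 0.00014). The complexin gene cplx2l, whose product clamps vesicle fusion, was read at 20.5, 19.8 and 17.8 RPKM in mutants, 6.34, 5.76 and 6.79 RPKM in morphants and 16.4, 12.5 and 15.2 RPKM in wild type (1.61, adjusted p = 9.6e-05). Rises of 2.25 and 1.596 were found for an entry of the vesicle SNARE VAMP1 and for the GABA transporter gene slc6a1a. The pan-neuronal RNA-binding protein genes elavl3 and elavl4, the synapsin genes syn1 and syn2a and the glutamate and GABA vesicle transporter genes slc17a6a, slc17a6b and slc32a1 rose as well.

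Receptors of the synapse gave calls in both directions. Of 19 glutamate, GABA, glycine and acetylcholine receptor genes compared, 8 rose (42.1%, beside 4.58% of all genes), 1 fell and 10 were not called. A fold change below 0 was found for 7 of the 19. The NMDA receptor subunit gene grin1a was read at 10.4, 9.46 and 9.54 RPKM in mutants, 4.36, 3.77 and 3.03 RPKM in morphants and 6.18, 5.58 and 5.12 RPKM in wild type (log2 fold change 1.39, standard error 0.15, limma's adjusted p = 0.00055). The gene that fell, chrng, encodes the gamma subunit of the embryonic acetylcholine receptor of muscle and was read at 2.37, 2.16 and 2.66 RPKM in mutants and 8.12, 10.9 and 8.89 RPKM in morphants (−1.91, adjusted p = 0.00023). The receptor genes had a median level of 5.11 RPKM, and without mutant replicate 1, 2 or 3 the number that rose was 2, 3 or 4. Of 49 neural progenitor and Notch pathway genes 2 rose (4.08%), and of 17 glial genes 1 (5.88%), s100b (1.595, adjusted p = 0.0043). Both shares were near the 4.58% of all genes.

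In the eye, some factors of retinal fate and some lens genes were higher in mutants. Of 31 retinal fate factors 7 rose and none fell (22.6% higher, beside 4.58% of all genes), and the median log2 fold change was 0.67. They included rx1 and rx2 of retinal progenitors, pax6b, the photoreceptor factors crx and six7, and the thyroid hormone receptor thrb. The homeobox gene crx, which drives photoreceptor genes, was read at 19.1, 16.8 and 19.02 RPKM in mutants, 8.21, 8.77 and 8.16 RPKM in morphants and 9.09, 14.2 and 22.3 RPKM in wild type (1.12, standard error 0.09, limma's adjusted p = 0.00022). Mutants and morphants were thus separated, while wild-type pools reached from just above morphants to above mutants. Without mutant replicate 1 or morphant replicate 3, 5 of the 31 genes rose, and without morphant replicate 2, 10. With a pseudocount of 1 RPKM 2 rose, and with read totals 18.

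Of 52 lens genes 12 rose (23.1%, beside 4.58% of all genes), 1 fell and 39 were not called. The beta-crystallin gene crybb1 was read at 646, 662 and 650.2 RPKM in mutants, 189, 136.5 and 169 RPKM in morphants and 882, 1066 and 1159 RPKM in wild type. Morphants were lowest and wild type highest, and mutants over morphants gave 1.998 on the log2 scale (standard error 0.11, limma's adjusted p = 6.2e-05). Its neighbour in the family crybb1l1 rose by 1.97, and the lens connexin gene cx44.1 and CRYGN (2 of 3) by 2.78 and 2.74. The gene that fell was crygn1, with 1.93, 2.27 and 2.62 RPKM in mutants and 7.18, 9.63 and 9.001 RPKM in morphants (−1.88, adjusted p = 0.00032).

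Photoreceptor and pigment epithelium genes had smaller shares of higher calls than the retinal fate and lens lists, though larger than all genes. The share was 11% for phototransduction and 12% for the retinoid cycle and pigment epithelium, beside 4.58% of all genes, from 2 genes each. The median log2 fold changes were 0.46 and 0.07, against −0.03 over all genes. Of 18 phototransduction genes that could be compared, of 61 in the table, 2 rose: rcvrna, which encodes the calcium sensor recoverin (2.04, limma's adjusted p = 0.042, not called without any single mutant library), and the cone transducin gene gngt2a (1.41, adjusted p = 0.0061). The gene gngt2a was read at 9.10, 9.08 and 8.90 RPKM in mutants, 2.35, 2.88 and 5.47 RPKM in morphants and 25.97, 18.2 and 15.4 RPKM in wild type, so that both groups lay below wild type. The summed level of 4 photoreceptor markers was 19.1 to 20.4 RPKM in mutants, 16.7 to 21.9 RPKM in morphants and 259 to 308 RPKM in wild type. Of 17 retinoid cycle and pigment epithelium genes, rlbp1b (2.06, adjusted p = 0.0013) and rpe65a (1.26, adjusted p = 0.0037), both of the visual cycle, rose, and dhrs9 fell (−1.01, adjusted p = 0.014, not called in 10 of 20 alternative settings). Of 48 pigment cell genes 6 rose (12.5%, beside 4.58% of all genes) and 2 fell (4.17%, beside 4.26%). Those that rose included the pteridine synthesis genes gch1 and sprb (1.39 and 1.71) and pnp4a of the iridophore (1.25). Those that fell were the purine synthesis genes paics and gart (−1.38 and −1.42). Paics was not called with cyclic loess, quantile or read total scaling, and gart was not called with read totals.

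Genes that deliver lipidated proteins to the cilium were mostly higher in mutants, and 2 of 12 were called. Arl3 and its relatives release lipid-anchored cargo from the carriers Unc119 and Pde6d inside the cilium, and Rp2 and Arl13b set the nucleotide state of Arl3. The 2 that rose were arl13a and unc119b (16.7% higher, beside 4.58% of all genes). Of the 12 genes, 10 had a fold change above 0 (median log2 fold change 0.57), beside 6538 of all 13786 genes (median −0.03). The summed level of the list was 66.6 to 73.4 RPKM in morphants and 38.9 to 48.6 RPKM in wild type. By this sum morphants lay above wild type, though the wild-type mean lay above that of morphants for arl13a, unc119a and tbcd. The cargo carrier gene unc119b was read at 10.8, 12.4 and 12.4 RPKM in mutants, 5.65, 5.69 and 4.76 RPKM in morphants and 5.34, 5.05 and 4.75 RPKM in wild type, with mutants above both other groups (1.13, standard error 0.12, limma's adjusted p = 0.00048). The gene arl13a was read at 6.02, 6.34 and 5.88 RPKM in mutants, 1.295, 2.196 and 2.695 RPKM in morphants and 2.49, 5.17 and 4.63 RPKM in wild type (1.57, adjusted p = 0.0028).

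The other cargo genes differed by less than 2-fold or varied between pools. Pde6d was read at 11.35, 13.7 and 12.9 RPKM in mutants and 7.51, 9.04 and 8.65 RPKM in morphants (0.58, limma's adjusted p = 0.0059). Arl3 was read at 21.9, 21.4 and 23.5 RPKM in mutants and 16.9, 15.4 and 15.4 RPKM in morphants (0.49, adjusted p = 0.0030). In wild type pde6d was read at 2.71, 5.92 and 5.24 RPKM and arl3 at 5.77, 2.75 and 6.95 RPKM, below all morphant pools. For both, the groups did not overlap. Mutants and morphants did not overlap for 54.6% of all genes. Fold changes of 0.75 for rp2, 0.74 for arl13b and 0.56 for arl2 also had an adjusted p under 0.05 (0.022, 0.014 and 0.042). Of all 13786 genes, 5431 reached such a p. An adjusted p above 0.05 was found for unc119a (2.42, adjusted p = 0.115, with 1 morphant pool at 0), arl2bp (0.41), unc119.1 (0.31), inpp5e (−0.16) and tbcd (−0.33).

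The products of Rab GTPase genes direct vesicles to their target membranes. Of 73 such genes 9 rose and none fell (12.3% higher, beside 4.58% of all genes). Above a mean of 10 RPKM none was called. With a pseudocount of 1 RPKM 6 rose, and with read totals 22. Rab8a acts in the delivery of membrane to the growing cilium. Its gene was read at 7.37, 7.22 and 8.14 RPKM in mutants, 2.33, 1.87 and 1.64 RPKM in morphants and 1.41, 3.08 and 1.89 RPKM in wild type. Mutants lay 3.78-fold above morphants and above every wild-type pool (log2 fold change 1.92, standard error 0.17, limma's adjusted p = 0.00029). Rab33a and rab4b rose by 1.76 and 1.49, and the synaptic vesicle Rab genes rab3aa and rab3ab were among the 9. Rab4b reached the mean of 2 RPKM through its mutant pools alone. Of 40 Arf and Arl genes 2 rose (5%), arl13a and arf3b, and ARF4 (3 of 3) fell. The rise of arf3b was 1.97 (limma's adjusted p = 0.021) and was not called without any single mutant library. Of 87 secretory coat and Golgi genes 2 rose, golga7ba (2.36) and golgb1, the gene of giantin (1.39), and 2 fell, sec24a (−1.16) and kdelr3 (−1.42).

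Calls among structural genes of cilia and basal bodies are set beside the 8.84% of all genes that were called. Of 16 transition zone genes compared, cep290 was the only one called (6.25%). None of 12 BBSome and satellite genes was called with limma, though 10 of the 12 had a fold change above 0. Their median was 0.45. Of all 13786 genes, 6538 had a fold change above 0 (median −0.03). With read totals 5 of the 12 BBSome and satellite genes were called higher, and with quantile scaling, voom weights or without morphant replicate 1, 1 was. The most highly expressed of the 12 were lztfl1 (0.58), arl6 (0.68, adjusted p = 0.0042), bbs7 (0.62) and pcm1 (−0.26). Of 30 intraflagellar transport genes 1 rose and 1 fell (3.33% each). The gene that fell, ift27, was read at 4.755, 5.46 and 4.53 RPKM in mutants and 12.15, 7.66 and 12.4 RPKM in morphants. Its log2 fold change was −1.08 (limma's adjusted p = 0.0041), and it was not called without morphant replicate 1 or 3.

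Motile cilia genes were mostly too low to compare, with 13 of 88 over the limit. Of these gas8 and rfx3 rose (1.34 and 1.28), and foxj1a, the master factor of motile cilia, fell (−1.03, limma's adjusted p = 0.0063). The shares were 15.4% higher and 7.69% lower, beside 4.58% and 4.26% of all genes. Foxj1a was read at 2.42, 1.84 and 1.82 RPKM in mutants and 4.88, 3.57 and 4.30 RPKM in morphants, and it was not called without morphant replicate 1 or mutant replicate 2 or 3. Gas8, rfx3 and foxj1a were not called in 10, 8 and 8 of the 20 alternative settings. None of 22 Hedgehog pathway genes was called by limma, and the 4 with the highest level lay within 2-fold: gas1a (0.32), boc (−0.26), hhip (−0.39) and cdon (−0.50). Of 48 centrosome and centriole genes CEP250 (1.198) and cep85l (1.02, not called without any single mutant library) rose (4.17%, beside 4.58% of all genes). CEP250 was read at 3.02, 2.97 and 2.88 RPKM in mutants and 1.22, 1.08 and 1.42 RPKM in morphants. It reached the mean of 2 RPKM through its mutant pools alone and was not called with cyclic loess or quantile scaling. Of 31 kinesin genes 3 rose (9.68%, beside 4.58%), among them kif5c (1.16). Among 22 tubulin and tubulin ligase genes tuba2 rose (1.21), and tuba7l and tuba8l2 fell (−1.52 and −1.31, tuba8l2 not with cyclic loess, quantile or read total scaling). These shares were 4.55% higher, near the 4.58% of all genes, and 9.09% lower, beside 4.26%.

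**Figure D3:**
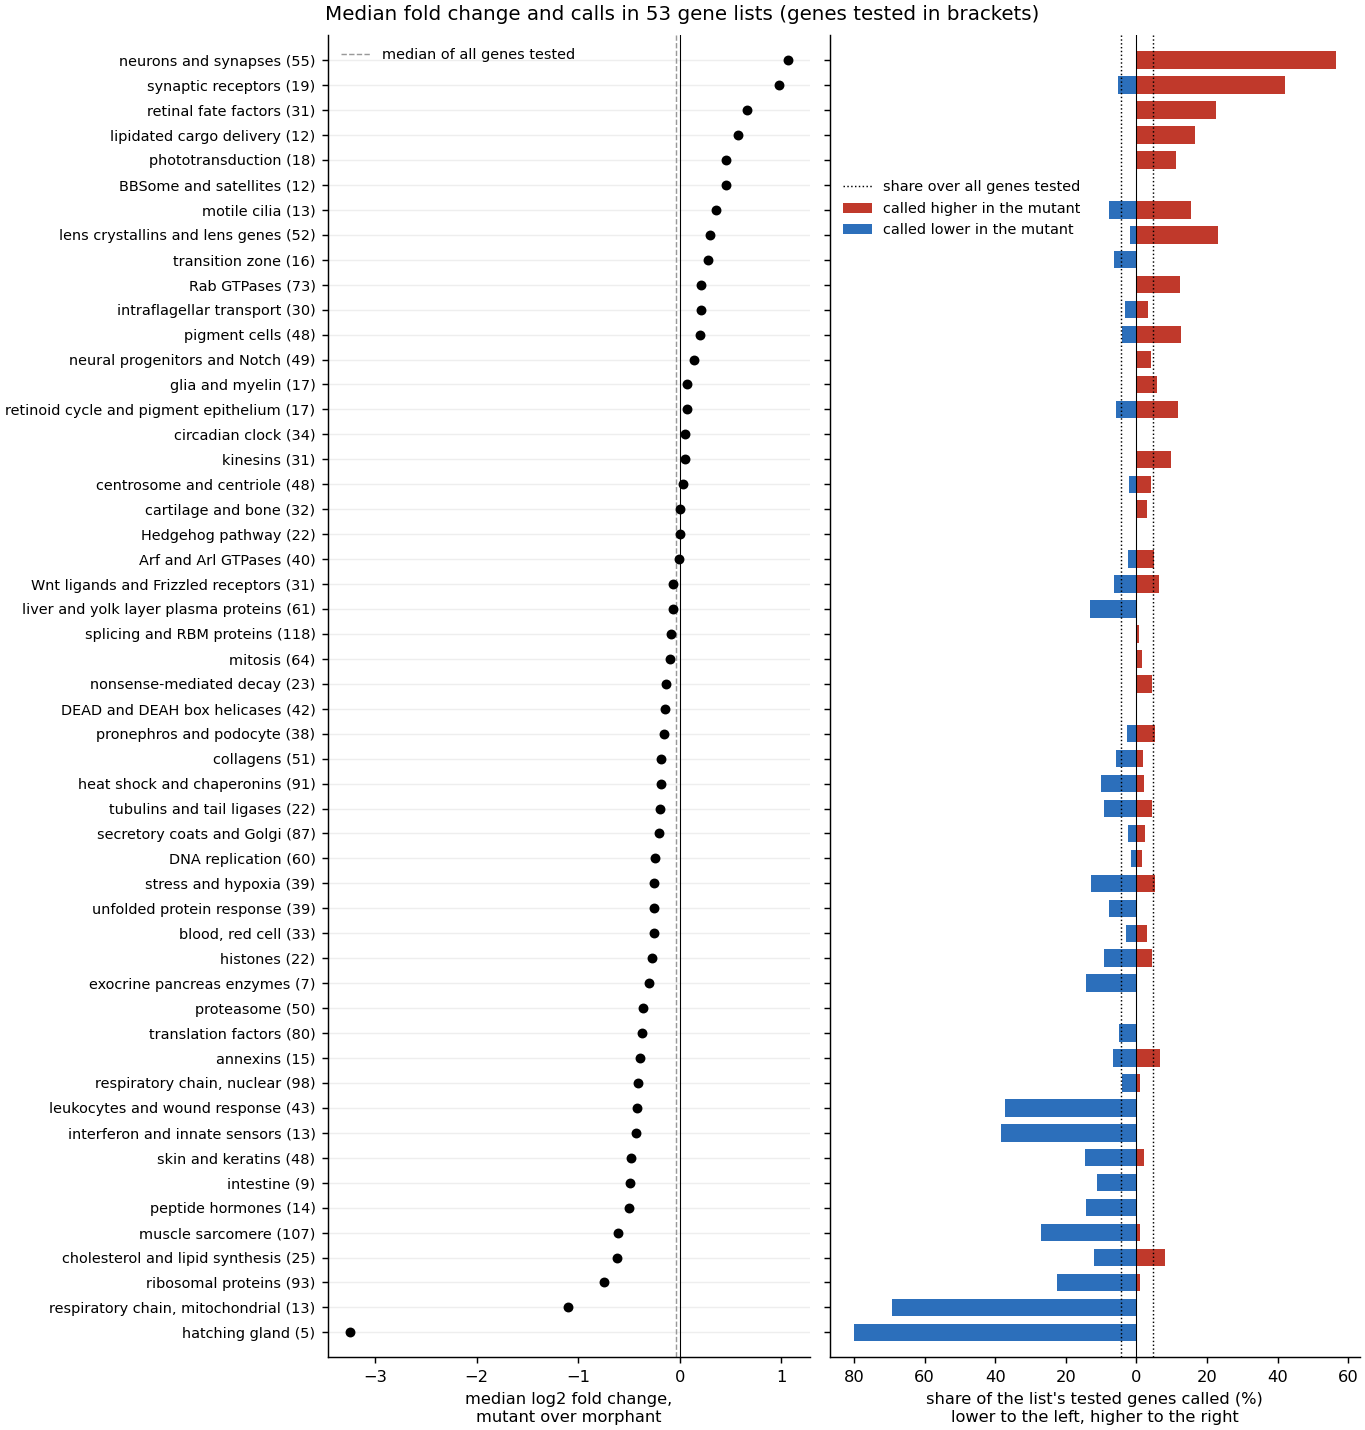
Left, the median log2 fold change of mutants over morphants in each of 52 gene lists (number of genes compared in brackets), with the median of all genes as a dashed line. Right, the share of each list called higher in mutants (red, to the right) or lower (blue, to the left), with the shares over all genes, 4.58% and 4.26%, as dotted lines; neurons and synapses reach 56.4% higher, hatching gland genes 80.0% lower.

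Genes of the hatching gland gave the largest fall of any list. The gland lies on the front of the embryo, releases the proteases that dissolve the egg envelope, and disappears after hatching. Of 5 genes compared 4 fell (80%, beside 4.26% of all genes), with a median log2 fold change of −3.25. The hatching enzyme gene he1a was read at 58.0, 69.3 and 64.3 RPKM in mutants, 558, 563 and 668 RPKM in morphants and 126, 177 and 197 RPKM in wild type. Mutants were lowest, wild type intermediate and morphants 9.32-fold above mutants (−3.22, standard error 0.10, limma's adjusted p = 4.2e-06). Its paralogue he1b (−3.46) and 2 entries of the cathepsin gene ctslb (−3.93 and −3.25) followed the same order of means. The first ctslb entry was read at 4.68, 4.67 and 5.53 RPKM in mutants, 68.1, 79.1 and 84.6 RPKM in morphants and 8.43, 12.1 and 15.3 RPKM in wild type. The call of these 4 genes was kept when any single library was left out and with the 4 other scalings. Near-identical copies of he1a and he1b may share reads.

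Genes of leukocytes and of the response to wounding fell in part. Of 43 genes compared 16 fell and none rose (37.2%, beside 4.26% of all genes), and the median log2 fold change was −0.42. The other 27 were not called, and 9 of the 43 had a fold change above 0. With read totals 12 fell and 1 rose, and the median was 0.0035. Besides mmp9, the cytokine gene il1b was read at 0.168, 0.530 and 0.401 RPKM in mutants, 5.90, 5.39 and 4.28 RPKM in morphants and 0.968, 0 and 1.25 RPKM in wild type (−3.58, standard error 0.42, limma's adjusted p = 0.00072). The chemokine gene cxcl-c1c was read at 0.423, 1.83 and 1.38 RPKM in mutants, 15.7, 20.4 and 16.3 RPKM in morphants and 4.88, 0 and 0 RPKM in wild type (−3.93, adjusted p = 0.00062). For both, morphants stood above all other pools, and both genes reached the mean of 2 RPKM through their morphant pools alone. The immediate-early factor genes fosl1a, junba and junbb, the collagenase gene mmp13a, the macrophage gene MPEG1 (1 of 3) and the NF-kB inhibitor gene nfkbiaa also fell.

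Innate immune genes had the same direction. Of 13 interferon and innate sensor genes compared, of 63 in the table, 5 fell (38.5%, beside 4.26% of all genes). Their summed level was 82.0 to 85.3 RPKM in mutants, 115 to 146 RPKM in morphants and 41.9 to 44.5 RPKM in wild type. By this sum the mutants lay below the morphants but above wild type. The transcription factor gene irf1b was read at 0.644, 0.804 and 0.644 RPKM in mutants, 3.27, 5.70 and 9.70 RPKM in morphants and 3.28, 0.435 and 1.97 RPKM in wild type (log2 fold change −2.86, standard error 0.39, limma's adjusted p = 0.0014). Morphants and mutants were separated, while 1 wild-type pool reached the lowest morphant. Irf1b reached the mean of 2 RPKM through its morphant pools alone. The cytokine feedback gene socs3b was read at 4.75, 5.04 and 5.36 RPKM in mutants, 17.8, 19.7 and 19.5 RPKM in morphants and 3.06, 6.51 and 4.91 RPKM in wild type (−1.89, adjusted p = 3.6e-05), and socs3a and gbp1 fell by 1.36 and 1.28. With read totals 2 of the 13 fell and 1 rose, and the median log2 fold change of the list was 0.01, against −0.43 in the main fit.

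Of 61 liver and yolk layer plasma protein genes 8 fell (13.1%, beside 4.26% of all genes) and none rose. Entries of complement C3 made up 4 of the 8. The complement gene c3c was read at 10.4, 10.27 and 10.05 RPKM in mutants, 49.8, 47.2 and 48.5 RPKM in morphants and 9.002, 7.66 and 11.08 RPKM in wild type. Mutants and wild type overlapped, and morphants lay apart from both (−2.23, standard error 0.07, limma's adjusted p = 4.2e-06). The genes c3b and C3 (3 of 9) fell by 2.06 and 2.05, and the clotting factor gene f9b fell by 1.18 on the log2 scale. The complement factor gene cfb was also among the 8 (−1.07), while the median of the list was −0.06, beside −0.03 over all genes. With cyclic loess 3 of the 61 rose and 4 fell, and with quantile scaling 4 rose and 4 fell. With read totals 7 rose and 3 fell. The list median minus that of all genes was −0.03 in the main fit, 0.21 with cyclic loess and 0.18 with quantile scaling.

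Chaperone and stress genes were in part lower in mutants as well. Of 91 heat shock, DnaJ and chaperonin genes 9 fell and 2 rose, against 5 and 2 with cyclic loess or quantile scaling and 5 and 10 with read totals. The small heat shock protein gene hspb1 was read at 14.9, 16.6 and 16.8 RPKM in mutants, 69.1, 58.0 and 84.2 RPKM in morphants and 31.7, 38.8 and 34.7 RPKM in wild type (−2.11, standard error 0.13, limma's adjusted p = 9.4e-05). Hsp90aa1.1, an HSP90 gene of developing muscle, was read at 26.6, 30.5 and 28.6 RPKM in mutants, 75.1, 76.7 and 82.1 RPKM in morphants and 23.5, 28.3 and 29.5 RPKM in wild type (−1.45, adjusted p = 4.2e-05), and the HSP90 co-chaperone gene ahsa1 fell by 1.62. The 2 that rose, dnajc6 (1.34) and dnajc5aa (1.02, not called without morphant replicate 3 or mutant replicate 1), encode co-chaperones of the synaptic vesicle cycle. Of 39 unfolded protein response genes 3 fell (7.69%, beside 4.26% of all genes), atf3, derl3 and xbp1 (−1.66, −1.41 and −1.04). Xbp1 was not called without morphant replicate 3 or with any of the 4 other scalings. Of 39 stress and hypoxia genes 5 fell (12.8%, beside 4.26%), among them igfbp1a (−1.87) and sqstm1 (−1.202). The share that rose was 5.13%, near the 4.58% of all genes. The 2 that rose were the glucose transporter gene slc2a1a (1.96) and ca9 (1.01, not called without morphant replicate 2 or mutant replicate 3).

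**Figure D4:**
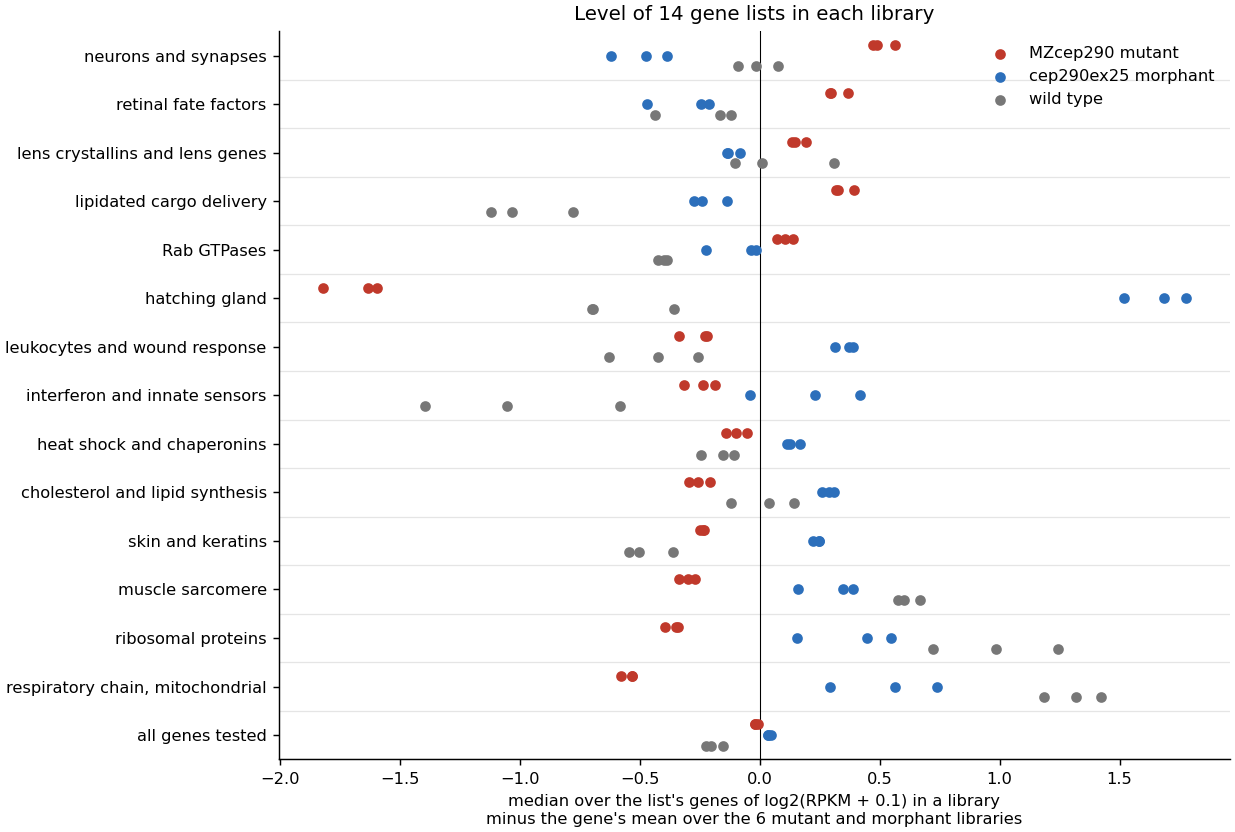
Level of 14 gene lists and of all genes in each library, as the median over the genes of log2(RPKM + 0.1) minus the gene's mean over the 6 mutant and morphant libraries, for mutants (red), morphants (blue) and wild type (grey, not used for centring). Hatching gland genes lie at −1.82 to −1.60 in mutants and 1.52 to 1.78 in morphants; for muscle, ribosomal and mitochondrial lists wild type lies beyond the morphants.

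Highly expressed genes of muscle, ribosome and mitochondrion were lower in mutants, and in these lists wild type lay above the morphants. Of 107 sarcomere genes 29 fell (27.1%, beside 4.26% of all genes) and 1 rose, with a median log2 fold change of −0.61. The cardiac actin gene actc1a was read at 115, 122 and 118.7 RPKM in mutants, 391, 287 and 447 RPKM in morphants and 413, 492 and 471 RPKM in wild type (−1.64, standard error 0.15, limma's adjusted p = 0.00030). With cyclic loess or quantile scaling 16 sarcomere genes fell and 5 rose, and with read totals 9 fell and 4 rose. The myosin gene myhc4 rose, with 6.42, 5.74 and 6.08 RPKM in mutants and 1.07, 1.06 and 1.93 RPKM in morphants (2.14, adjusted p = 0.00077). It reached the mean of 2 RPKM through its mutant pools alone.

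Of 93 ribosomal protein genes 21 fell (22.6%, beside 4.26% of all genes) and 1 rose. A fold change below 0 was found for 86 of the 93 (median −0.74). The large subunit gene rpl19 was read at 782, 779.8 and 809 RPKM in mutants, 2099, 1602 and 2286 RPKM in morphants and 2399, 2886 and 3294 RPKM in wild type (−1.32, limma's adjusted p = 0.00043). These calls depended on scaling and on single libraries: 1 fell with cyclic loess, quantile or read total scaling, and 35, 12 and 8 fell without morphant replicates 2, 1 and 3. The largest fall was that of an rps27.2 entry (ENSDARG00000090186, −2.002, adjusted p = 3.6e-05), while a second entry fell by 1.02, and rpl22l1 rose (1.07, adjusted p = 0.00041), with 130.5, 135 and 134.5 RPKM in mutants and 55.2, 62.4 and 74.15 RPKM in morphants. Among 80 translation factor genes 4 fell (5%, near the 4.26% of all genes) and none rose.

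All 13 mitochondrially encoded respiratory genes had a fold change below 0 (median −1.10), and 9 fell (69.2%, beside 4.26% of all genes). The cytochrome oxidase gene mt-co3 was read at 4149, 4358 and 4436 RPKM in mutants, 13928, 10617 and 15977 RPKM in morphants and 25105, 28729.9 and 30646 RPKM in wild type (−1.63, standard error 0.16, limma's adjusted p = 0.00044). The order of the groups was the same as for the share of all reads on mitochondrial genes, 3.11% to 3.26% in mutants, 4.63% to 5.54% in morphants and 7.45% to 7.62% in wild type. With cyclic loess 1 of the 13 fell, with quantile scaling 1 fell and 1 rose, and with read totals 2 fell. Of 98 nuclear-encoded respiratory genes 4 fell (4.08%, near the share of all genes) and 1 rose, ndufa4 (1.02). Whether the share of reads on the most abundant genes, which differed between the groups in the same order, has a part in the differences of these lists was not tested.

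A group of short noncoding RNAs showed the same order with a larger difference. Of 23 entries named Metazoa_SRP, the RNA of the signal recognition particle, 22 fell (beside 4.26% of all genes), with a median log2 fold change of −2.11. Their summed level was 3517, 5040.3 and 5107 RPKM in mutants, 20407, 11164 and 31329 RPKM in morphants and 52890, 46314 and 30248.5 RPKM in wild type. The 7SK RNA entry rn7sk, an RNA that restrains transcription elongation, was read at 419.6, 570.2 and 559.9 RPKM in mutants, 2257, 1188 and 3145 RPKM in morphants and 5201, 4560 and 3181 RPKM in wild type (−1.99, limma's adjusted p = 0.0026). These RNAs as a rule carry no poly(A) tail, and the libraries were made from poly(A)-selected RNA. Their copies are near-identical, so that the reads of single entries are uncertain. Genes under 500 bases, which include them, were called lower in 18.5% of 481 cases and higher in 4.99%.

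Some skin genes were also lower in mutants. Of 48 skin and keratin genes 7 fell (14.6%, beside 4.26% of all genes) and 1 rose. With cyclic loess 4 fell and 1 rose, and with read total scaling 2 fell and 2 rose. The simple epithelial keratin gene krt8 was read at 191, 195 and 192 RPKM in mutants, 526, 483 and 552 RPKM in morphants and 378, 467 and 518 RPKM in wild type (−1.43, standard error 0.07, limma's adjusted p = 3.5e-05), though it was not called with cyclic loess or read total scaling. The tight junction gene cldn1 fell by 1.66, and the cell envelope gene evpla rose (1.21, adjusted p = 0.00043). Of 51 collagen genes col1a1a, col1a1b and col12a1a fell by 1.08, 1.06 and 1.06 (adjusted p = 0.00097, 0.00082 and 0.00023 with limma), none of them with cyclic loess, quantile or read total scaling, and col8a1a rose (1.47). In the main fit 5.88% of collagen genes fell and 1.96% rose, beside 4.26% and 4.58% of all genes. With cyclic loess or quantile scaling 2 collagen genes rose and none fell, and with read totals 3 rose and none fell. Of 15 annexin genes, which encode calcium-dependent membrane-binding proteins, 1 moved in each direction (6.67% each, beside 4.58% higher and 4.26% lower). Anxa6 was read at 44.6, 46.3 and 45.3 RPKM in mutants and 12.1, 11.12 and 16.25 RPKM in morphants (1.80, adjusted p = 0.00018), and anxa2a at 30.4, 28.8 and 29.9 RPKM in mutants and 100.05, 109 and 102.4 RPKM in morphants (−1.80, adjusted p = 9.0e-06).

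Sterol and lipid synthesis genes gave few calls, in both directions. Of 25 cholesterol and lipid synthesis genes 3 fell (12%, beside 4.26% of all genes) and 2 rose (8%, beside 4.58%). The median log2 fold change was −0.61, and 22 of the 25 had a fold change below 0. With read totals 2 fell and 2 rose, and with quantile scaling 7 fell and 2 rose. Above a mean of 10 RPKM none was called. The lanosterol demethylase gene cyp51 was read at 3.90, 3.71 and 3.95 RPKM in mutants, 13.8, 12.3 and 13.6 RPKM in morphants and 8.85, 4.92 and 10.53 RPKM in wild type (−1.76, standard error 0.10, limma's adjusted p = 6.3e-05). The squalene epoxidase gene sqlea fell by 1.67 and an entry of the LDL receptor gene by 1.02. The stearoyl-CoA desaturase gene scdb and scap, the escort of the sterol-sensing transcription factor, rose (1.87 and 1.34). Of 14 peptide hormone genes insulin, ins, fell, with 17.6, 16.2 and 18.2 RPKM in mutants, 41.1, 33.4 and 40.75 RPKM in morphants and 59.4, 40.02 and 42.9 RPKM in wild type (−1.14, adjusted p = 0.00030), as did an entry of CCK (−1.04), both not with cyclic loess, quantile or read total scaling.

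The lists of proliferation and of RNA and protein turnover gave few calls, beside 8.84% of all genes called. Of 60 DNA replication genes 1 rose, the DNA ligase gene LIG1 (1.11, limma's adjusted p = 0.00053), and 1 fell, the rrm2 entry described above, and 46 of the 60 had a fold change below 0. Of 64 mitosis genes the kinetochore gene cenpf rose, with 13.25, 12.9 and 12.9 RPKM in mutants, 3.00, 3.62 and 2.82 RPKM in morphants and 1.04, 2.62 and 2.07 RPKM in wild type (2.02, adjusted p = 8.7e-05). Single genes rose among 118 splicing and RBM protein genes (rbm24b, 1.81) and among 23 nonsense-mediated decay genes (upf3a, 1.32). None of 50 proteasome, 42 DEAD and DEAH box helicase or 34 circadian clock genes was called with limma, although some abundant members passed the p threshold with a fold change under 2, among them psmb2 (−0.90), ddx39ab (−0.50), csnk1db (−0.59) and a cry3 entry (−0.93). In all, 20 of the 52 lists had more higher than lower calls, 21 had more lower calls and 5 had none.

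Calls were also counted among the neighbours of cep290. The gene lies on chromosome 25 of the GRCz12tu assembly, which was used only for the order of genes. Of the 25 protein-coding genes on either side of it, 28 could be compared, and 1 was called (3.57%, beside 8.84% of all genes), cyp2x7, 19 genes away. The nearest genes on either side, rlig1 and tmtc3, had log2 values of −0.29 and −0.06 (limma's adjusted p = 0.25 and 0.67). The median over the 28 was 0.07. Of the 11720 genes that could be placed on 1 of the 25 chromosomes 7.45% were called. By chromosome the share ranged from 5.23% to 10.6%, and on chromosome 25 it was 7.69% (28 of 364), the 10th highest. Among the 10 largest rises, cyp2x7 and C25HXorf38 (1 of 2) were placed on chromosome 25. Mvb12ba, rnf126 and adh8b were placed on chromosomes 5, 2 and 13, and the other rises were not placed. The falls that could be placed lay on chromosomes 1, 8, 10, 12 and 22.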

How the data were processed

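Whole-embryo poly(A)-selected RNA was sequenced with single reads of 50 bp, and the authors used STAR, HTSeq and edgeR with the Zv9 genome, per the labels and their methods. The deposited table holds RPKM values that the authors computed per gene from normalised library sizes. In each library the values were whole multiples of 1 read within a tolerance of 0.01 reads, which gave back the reads quoted here. Values were taken as log2(RPKM + 0.1), and the 3 mutant libraries were compared with the 3 morphant libraries by limma 3.58.1 (R 4.3.3) with a mean-variance trend, after a filter of a mean of at least 2 RPKM, with Benjamini-Hochberg adjustment over all 13786 genes. Fold changes of low genes are understated on this scale. A gene low in 1 group could pass the filter through the other group alone, which bears on the counts of calls. Alternatives covered pseudocount, filter, scaling, weights, read depth, the replicate block and each library left out. The model was tested on simulated data. Named genes were cep290, the cargo delivery list, the 10 largest rises and falls among called, non-overlapping genes with a gene name, and up to 4 called members of each list in each direction, or the 4 with the highest level where none was called. Other members and entries named were chosen after their values were seen, and some genes and 1 list are not reported here. The comparison and the 52 gene lists were chosen with earlier results of these data known, and a symbol was paired with 65.0% of gene IDs from a names table. Python 3.11.15 and matplotlib 3.10.9 were used for summaries and plots.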

Additional observations from a re-analysis of the deposited data

How the results depend on the processing

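Against 631 genes called higher and 587 called lower in mutants, the number called higher was 1179 with a filter of 0.5 RPKM in 3 libraries, 1924 with no filter, 85 with a mean of at least 10 RPKM, 368 with a pseudocount of 1, 1898 with read totals and 201 when tested against 1.5-fold. The number called lower was 307 with a mean of at least 10 RPKM, 204 with read totals and 330 when tested against 1.5-fold. Leaving out 1 library at a time gave 480 to 848 higher and 525 to 762 lower calls, and both maxima were without morphant replicate 2. With the replicate block, 644 were called higher and 588 lower, and 1204 of the 1218 calls were shared. The replicate numbers did not pair the libraries: deviations of equally numbered mutant and morphant libraries correlated with r of −0.067, 0.0039 and 0.016, and not every library correlated best with its own number. Of the 160 named genes that were called, 63 kept the call in every alternative run, so most lost it in at least 1. Without at least 1 single library 49 lost it, and with cyclic loess, quantile or read total scaling 54 did. A gene can be in both of these counts. None reversed.

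Relative to the median of all genes, the median log2 fold change of some lists turned round. With a mean of at least 10 RPKM it was −0.26 for intraflagellar transport, −0.078 for synaptic receptors, 0.098 for splicing, 0.029 for nonsense-mediated decay, 0.0044 for collagens, −0.0041 for kinesins, 0.016 for DEAD and DEAH box helicases and 0.046 for histones. With cyclic loess it was 0.11 for splicing, −0.11 for centrosome genes and 0.021 for histones, and with quantile scaling 0.12 for splicing, 0.019 for nonsense-mediated decay, −0.13 for centrosome genes and 0.044 for histones. The causes were not tested. With 3 pools a group, genes near 2 RPKM in the shallower morphant libraries were the least precise, with a median standard deviation of 0.34 on the log2 scale between 2 and 4 RPKM.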

Other observations

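Among short noncoding RNAs other than the signal recognition particle and 7SK entries, 8 of 13 entries named U (spliceosomal RNAs and the nucleolar U3) were lower in mutants by limma and none was higher, with a median log2 fold change of −2.02. None of the 3 U3 entries was called. Of 19 entries of 5S and 5.8S ribosomal RNA 4 were higher and none lower (median 0.81), and of 3 nuclear RNase P entries 1 was higher. Over all genes 4.58% were called higher and 4.26% lower. Morphants were read at 0.610, 0 and 0 RPKM for that RNase P entry. For the 5S entries that rose by 5.06 and 4.06 they were read at 0, 1.48 and 0 and at 0, 2.86 and 0 RPKM. Those that rose by 1.63 and 1.72 were above 0 in every morphant pool. The summed level of the U entries was 221, 378 and 360.4 RPKM in mutants, 1507, 733 and 1891 RPKM in morphants and 3217, 3078 and 1810.4 RPKM in wild type. The lowest morphant pool was replicate 2, which among morphants also had the lowest level of the signal recognition particle and 7SK entries and the most reads.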
